A study of Drosophila melanogaster with 15 samples.

Results

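Xxylt was examined together with Notch, its ligands and the other enzymes that add sugars to Notch, a set of 7 genes among the 17559 gene IDs counted: Xxylt, shams, rumi, fng, N, Dl and Ser, taken by their FlyBase symbols. Xxylt was chosen by its measured values, since it was higher in the Bap60 knockdown libraries at both ages, so its knockdown values are given below as a description, with no test. The other 6 were taken for their place in the pathway. All 7 passed the filter on low counts, as 11997 genes did.

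The libraries hold nuclear RNA from the mushroom body, the memory centre of the fly brain, of male Drosophila melanogaster. Every fly carried UAS-unc84::GFP, a GFP-tagged nuclear envelope protein used to pull nuclei down by the INTACT method, and the R14H06-Gal4 driver, so tag and hairpin were expressed in the cells that driver reaches. Knockdown flies carried the hairpin UAS-Bap6032503 against Bap60, which belongs to the core of SWI/SNF, a complex that moves nucleosomes, and control flies a hairpin against mCherry, a protein that flies lack. Juvenile males were taken 0 to 3 hours after eclosion (2 knockdown and 3 control libraries) and mature males at 1 to 5 days (5 and 5). Whether the libraries of a group come from different batches of flies is not stated in the labels, and p-values therefore reflect library-to-library spread that may be technical. Any other difference between the flies with the different hairpins cannot be told apart from the loss of Bap60, and in pooled nuclei fewer cells of a type and less RNA per cell cannot be told apart.

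Notch is a receptor whose extracellular part is a row of EGF repeats, and sugars on these repeats set how it folds, reaches the surface and answers its ligands Delta and Serrate, which sit on neighbouring cells. Rumi adds a glucose to EGF repeats, Shams adds a xylose to that glucose, and Xxylt adds the next xylose. Fringe extends the fucose on other sites of the same repeats and, in flies, favours Delta over Serrate. The xylose comes from UDP-xylose, made by UDP-glucose pyrophosphorylase (UGP), UDP-glucose dehydrogenase (sgl) and UDP-xylose synthase (Uxs) in turn. In the fly, ligand binding leads to cleavage of Notch, and the freed intracellular part joins Su(H) and Mastermind in the nucleus to switch on genes such as the E(spl) complex.

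Total gene counts ran from 37879789 to 53143845 in juvenile and from 17447070 to 70495790 in mature libraries. Over all genes kept, replicates varied far more in juvenile flies, with a common biological coefficient of variation of 0.87 against 0.25 in mature flies. Single genes went both ways. N lay closer together among the juvenile than among the mature controls, and rumi farther apart. Bap60 was 5.15, 11.5 and 11.8 CPM (counts scaled to a common library size by TMM) in the juvenile controls and 5.03 and 7.63 in the juvenile knockdown libraries, which overlapped. It was 15.6 to 21.7 CPM in the mature controls and 7.08 to 14.5 in the mature knockdown libraries, which did not overlap, with a log2 change of -0.63 (SE 0.23) that was not called (edgeR adjusted p = 0.719). Kenyon cell markers, for the intrinsic neurons of the mushroom body, were all detected, with a summed level of 12361 to 22740 CPM over the 13 matched. The 10 glial markers summed to 749 to 1586 CPM, with moody and alrm of that list at 0 in every library. Markers of other tissues were present as well. The 6 matched muscle markers summed to 1773 to 12090 CPM and the 9 photoreceptor markers to 2202 to 9893. The 7 fat body markers summed to 185 to 3557 CPM and the 5 hemocyte markers to 318 to 588. Juvenile control replicate 1 stood apart. It held the highest value of 9 of 13 Notch target genes, and of 19.3% of all genes kept. The 2 shares are not alike, since only 11 of the 13 passed the filter and all 13 were low in every library. Mature control replicate 1 and mature knockdown replicate 1 had the lowest summed glial marker level of their groups (769 and 749 CPM) and the lowest summed muscle marker level (1773 and 2018 CPM). Values without these libraries are given below for the genes whose values they move.

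Xxylt encodes the xylosyltransferase that acts last in the chain. The gene (FBgn0034959) is 1 exon block of 1639 bases on chromosome arm 2R, 24022343 to 24023981 on the plus strand of BDGP6.54, and it overlaps no other annotated gene. In juvenile controls it was 45.7, 59.2 and 57.9 CPM, and in the juvenile knockdown libraries 85.6 and 98.1 CPM. In mature controls it was 55.4, 53.6, 43.7, 45.3 and 51.6 CPM, and in the mature knockdown libraries 105, 71.3, 75.8, 84.1 and 85.0 CPM. Every knockdown library lay above every control library, at both ages and also across them.

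The group means of Xxylt were 54.3 ± 7.46 CPM (SD, n = 3) and 91.8 ± 8.83 (n = 2) in juvenile control and knockdown flies, and 49.9 ± 5.15 (n = 5) and 84.2 ± 12.9 (n = 5) in mature ones. The fitted log2 change was 0.76 (SE 0.17) in juvenile and 0.75 (SE 0.12) in mature flies, or 1.69-fold at each age. The difference of the 2 changes was 0.00, with an interval of 2 SE from -0.42 to 0.41. Without mature control replicate 1 or mature knockdown replicate 1 the mature value was 0.79 or 0.66, and without juvenile control replicate 1 the juvenile value was 0.69. These values chose the gene and support nothing by themselves. Across all genes kept, 0.0167% were called higher at an adjusted p under 0.05 in the mature and 1.54% in the juvenile knockdown. Groups did not overlap, with the knockdown higher, for 0.725% and 14.8% of genes. In both mature groups Xxylt varied less among replicates than the median gene, as shams and N did too. The coefficient of variation of Xxylt was 10.3% in mature controls, where the median of all genes kept was 20.3%. In mature knockdown flies it was 15.3%, where the median was 21.4%.

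Age was not used to choose Xxylt. From juvenile to mature flies its log2 change was -0.12 (SE 0.14) in controls and -0.13 (SE 0.16) in knockdown flies, and neither was called (edgeR adjusted p = 0.545 and 0.55). The 2 SE intervals ran from -0.39 to 0.15 and from -0.44 to 0.19.

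**Figure D1:**
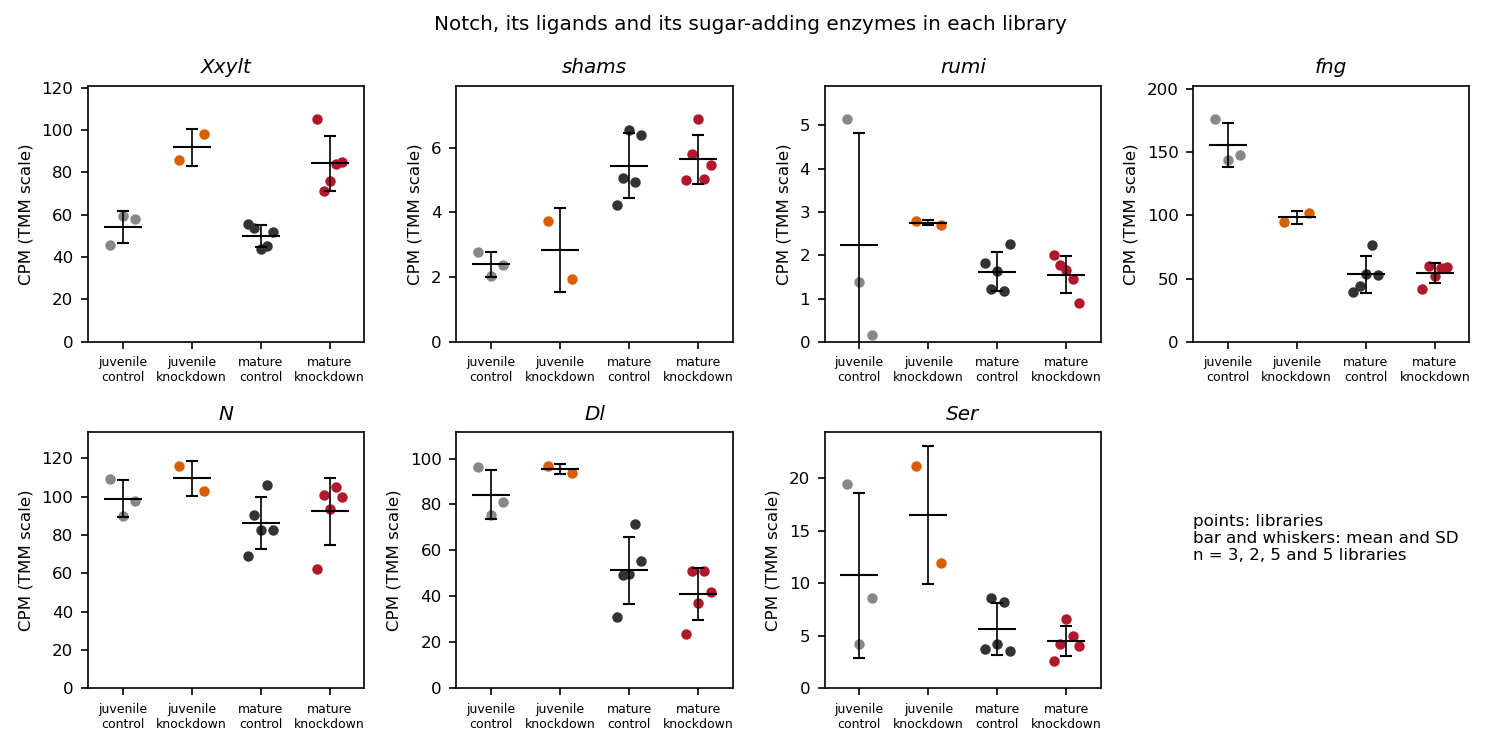
CPM on the TMM scale of each of the 7 genes in each library (points), with the mean and SD of the group (bar and whiskers, the lower whisker of rumi running below the axis), for 3 juvenile control, 2 juvenile knockdown, 5 mature control and 5 mature knockdown libraries. Xxylt separates by genotype at both ages (84.2 against 49.9 CPM in mature flies), fng, Dl and shams separate by age, and N overlaps throughout.

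The genes beside Xxylt gave a view of its surroundings. Of 14 annotated genes within 20 kb, 13 were in the files and 12 passed the filter. None of the 12 was called in the mature knockdown, where 0.0583% of all genes were, and 1 was called in the juvenile knockdown, where 5.33% were. That gene, EbpIII, was lower by a log2 change of -0.71 (SE 0.19, edgeR adjusted p = 0.0421) and was named after its value was seen. CG3907, 45 bases away on the minus strand, is the nearest gene. Its log2 change was 0.15 (SE 0.09) in the mature knockdown and 0.40 (SE 0.13) in the juvenile knockdown, and neither was called (edgeR adjusted p = 0.887 and 0.0797). Rsph4a, 2447 bases away, was also named after its values were seen. It had 2 to 11 reads in the mature controls and 0 to 1 in the mature knockdown libraries, which did not overlap, as for 1.21% of all genes with the knockdown lower. It was not called by edgeR (adjusted p = 0.688). Its two-sided exact permutation p, 0.00794, is the smallest this design gives and follows from the lack of overlap, so it adds nothing. In juvenile flies the groups of Rsph4a overlapped, with a difference of mean log2 CPM of 1.57, in the other direction. The next gene on the other side, asRNA:CR45350, lies 117 bases away and had too few reads to pass the filter. The strand setting of the counting is not given in the sources used here.

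Among all genes kept, the 5 with a proper symbol whose log2 CPM followed Xxylt most closely over the 15 libraries were nwk (Pearson r = 0.84), Crg-1 (0.82), Jhbp2 (0.80), Psi (0.79) and Hcs (0.79). The other 6 genes of the set had r between -0.23 and 0.07 with Xxylt. The 15 points share the 4 groups, so these values describe the groups as much as the libraries.

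Shams, which adds the first xylose, is encoded on chromosome arm 3R, 25072729 to 25074607 on the minus strand (FBgn0039273). It was 2.79, 2.03 and 2.38 CPM in juvenile controls and 3.75 and 1.93 in juvenile knockdown flies. It was 4.22, 5.08, 6.56, 4.95 and 6.40 CPM in mature controls and 5.02, 5.81, 6.88, 5.05 and 5.47 in mature knockdown flies. All 10 mature libraries lay above all 5 juvenile ones, and the genotypes overlapped at each age.

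In controls shams rose with age by a log2 change of 1.18 (SE 0.27), or 2.27-fold (edgeR adjusted p = 0.0042; two-sided exact permutation p = 0.0179 over libraries, the smallest this design gives). In knockdown flies it rose by 1.00 (SE 0.31), or 1.99-fold (edgeR adjusted p = 0.0201; exact permutation p = 0.0476, the smallest this design gives). Without juvenile knockdown replicate 2 the rise in knockdown flies was 0.60 and not called (edgeR adjusted p = 0.217). The knockdown changed shams by 0.05 (SE 0.22) in mature and 0.24 (SE 0.32) in juvenile flies on the log2 scale, neither of them called (edgeR adjusted p = 1 and 0.773).

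Rumi, the glucosyltransferase that starts the chain, had the lowest mean per exon length of the 4 transferases in every group. In the juvenile groups it lay within the replicate spread of shams. Its gene (FBgn0086253) lies on chromosome arm 3R, 22749014 to 22750597 on the minus strand, and shares 2.8% of its exon bases with CG31139. It was 5.14, 1.39 and 0.163 CPM in juvenile controls and 2.79 and 2.71 in juvenile knockdown flies. It was 1.83, 1.21, 1.64, 1.17 and 2.26 CPM in mature controls and 2.00, 1.77, 1.66, 1.44 and 0.895 in mature knockdown flies. The 3 juvenile controls spanned the whole range of the other libraries and more, from 7 to 210 reads.

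No comparison called rumi. The log2 change was -0.06 (SE 0.57) in the mature knockdown, 0.30 (SE 0.79) in the juvenile knockdown, -0.46 (SE 0.64) with age in controls and -0.82 (SE 0.71) with age in knockdown flies (edgeR adjusted p = 1, 0.906, 0.625 and 0.38). The age value in controls became 1.08 without juvenile control replicate 1, so it has no settled direction. The 2 SE intervals in the knockdown comparisons ran from -1.19 to 1.07 and from -1.28 to 1.89, so a change of 1 log2 unit in either direction was not detectable at this depth and spread.

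Fringe adds N-acetylglucosamine to the fucose on Notch. Its gene fng (FBgn0011591) spans 20925891 to 20949512 on the minus strand of chromosome arm 3L, and 1.12% of its exon bases overlap CG10589 on the other strand. It was 176, 144 and 148 CPM in juvenile controls and 94.8 and 102 in juvenile knockdown flies. It was 39.5, 44.0, 53.6, 76.9 and 53.1 CPM in mature controls and 41.6, 59.8, 51.8, 58.5 and 59.4 in mature knockdown flies. The juvenile controls were highest, the juvenile knockdown libraries lay between, and both mature groups were lower and overlapped each other.

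With age fng fell by 1.54 on the log2 scale in controls (SE 0.17), or 2.92-fold (edgeR adjusted p = 9.18e-06; two-sided exact permutation p = 0.0179, the smallest this design gives). In knockdown flies it fell by 0.86 (SE 0.19), or 1.81-fold (edgeR adjusted p = 0.00265; exact permutation p = 0.0476, the smallest this design gives). Without juvenile control replicate 1 the fall in controls was to a log2 change of -1.44, and without mature control replicate 1 to -1.46, both still called. In juvenile flies the knockdown libraries lay below all controls, with a log2 change of -0.67 (SE 0.22) that was not called (edgeR adjusted p = 0.0827). That value was called in the juvenile libraries fitted alone (adjusted p = 0.0371) and without mature control replicate 4 (0.0343). Without juvenile control replicate 1 it was -0.53 and not called (adjusted p = 0.152). In juvenile flies 30% of all genes had groups that did not overlap, and 2 against 3 libraries cannot give an exact permutation p below 0.1. In mature flies the log2 change of fng was 0.02 (SE 0.15, edgeR adjusted p = 1). The difference between the ages, 0.69 (SE 0.27), was not called (edgeR adjusted p = 0.199).

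The receptor Notch is encoded by N (FBgn0004647), on chromosome X at 3134870 to 3172221 on the plus strand. It was 109, 89.8 and 97.6 CPM in juvenile controls and 116 and 103 in juvenile knockdown flies. It was 69.1, 90.3, 82.4, 106 and 82.7 CPM in mature controls and 62.1, 101, 93.5, 105 and 100 in mature knockdown flies. All 4 groups overlapped, and replicate 1 was the lowest of each mature group.

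No comparison called N. Its log2 change was 0.10 (SE 0.14) in the mature and 0.15 (SE 0.20) in the juvenile knockdown (edgeR adjusted p = 1 and 0.773). With age it was -0.20 (SE 0.16) in controls and -0.25 (SE 0.18) in knockdown flies (edgeR adjusted p = 0.37 and 0.29). Without mature knockdown replicate 1 the mature knockdown value was 0.21, and without mature control replicate 1 it was 0.03. The 2 SE intervals of the knockdown comparisons, from -0.18 to 0.37 and from -0.25 to 0.54, bound what these libraries could show.

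Over the 15 libraries, the log2 CPM of N followed that of ci (Pearson r = 0.94), oc (0.94), shg (0.93), bbg (0.93) and kibra (0.93) most closely. This ranking is among the genes kept that have a proper symbol. Inside the set, r with N was 0.79 for Dl, 0.73 for Ser, 0.59 for fng, 0.01 for rumi, -0.01 for Xxylt and -0.26 for shams. As above, the points share groups, and no test was made.

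Delta is the ligand encoded by Dl (FBgn0000463), on chromosome arm 3R at 19302731 to 19326217 on the minus strand. It was 96.3, 75.5 and 81.2 CPM in juvenile controls and 96.8 and 93.8 in juvenile knockdown flies. It was 30.9, 49.2, 49.6, 71.5 and 55.4 CPM in mature controls and 23.6, 51.2, 37.0, 51.1 and 42.1 in mature knockdown flies. All mature libraries lay below all juvenile ones.

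Dl fell with age by 0.72 on the log2 scale in controls (SE 0.23), or 1.64-fold (edgeR adjusted p = 0.0371; two-sided exact permutation p = 0.0357). In knockdown flies it fell by 1.22 (SE 0.26), or 2.32-fold (edgeR adjusted p = 0.00217; exact permutation p = 0.0476, the smallest this design gives). The call in controls was lost when juvenile knockdown replicate 1, juvenile control replicate 1 or 3, or mature control replicate 1, 2, 3 or 5 was left out, with log2 changes from -0.75 to -0.58 and adjusted p from 0.0519 to 0.119. It was also lost with limma-voom (adjusted p = 0.144 with a weight per sample and 0.16 with a weight per age). The knockdown effect was -0.32 (SE 0.21) in mature and 0.18 (SE 0.30) in juvenile flies, and neither was called (edgeR adjusted p = 0.901 and 0.835). The mature value of Dl was -0.46 without mature control replicate 1 and -0.18 without mature knockdown replicate 1, and the juvenile value was 0.32 without juvenile control replicate 1.

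Serrate is the other ligand, encoded by Ser (FBgn0004197) on chromosome arm 3R at 27172090 to 27194267 on the minus strand. It was 19.5, 4.21 and 8.64 CPM in juvenile controls and 21.2 and 11.9 in juvenile knockdown flies. It was 3.71, 8.58, 4.18, 8.22 and 3.60 CPM in mature controls and 2.62, 4.21, 6.62, 5.01 and 4.08 in mature knockdown flies. The control groups overlapped between ages and the knockdown groups did not.

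In knockdown flies Ser fell with age by 1.87 on the log2 scale (SE 0.47), or 3.64-fold (edgeR adjusted p = 0.00685; two-sided exact permutation p = 0.0476, the smallest this design gives). Without juvenile knockdown replicate 1 the value was -1.32 and not called (adjusted p = 0.116). In controls the log2 change was -0.93 (SE 0.43), not called (edgeR adjusted p = 0.132). It was -1.30 and called without juvenile control replicate 2 (adjusted p = 0.028), and -0.17 without juvenile control replicate 1 (adjusted p = 0.8). The knockdown effect on Ser was -0.32 (SE 0.39) in mature and 0.62 (SE 0.53) in juvenile flies (edgeR adjusted p = 1 and 0.6). Leaving out single libraries took the mature value of Ser from -0.49 to -0.12 and the juvenile value from 0.15 to 1.4, the last without juvenile control replicate 1 (adjusted p = 0.0859).

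**Figure D2:**
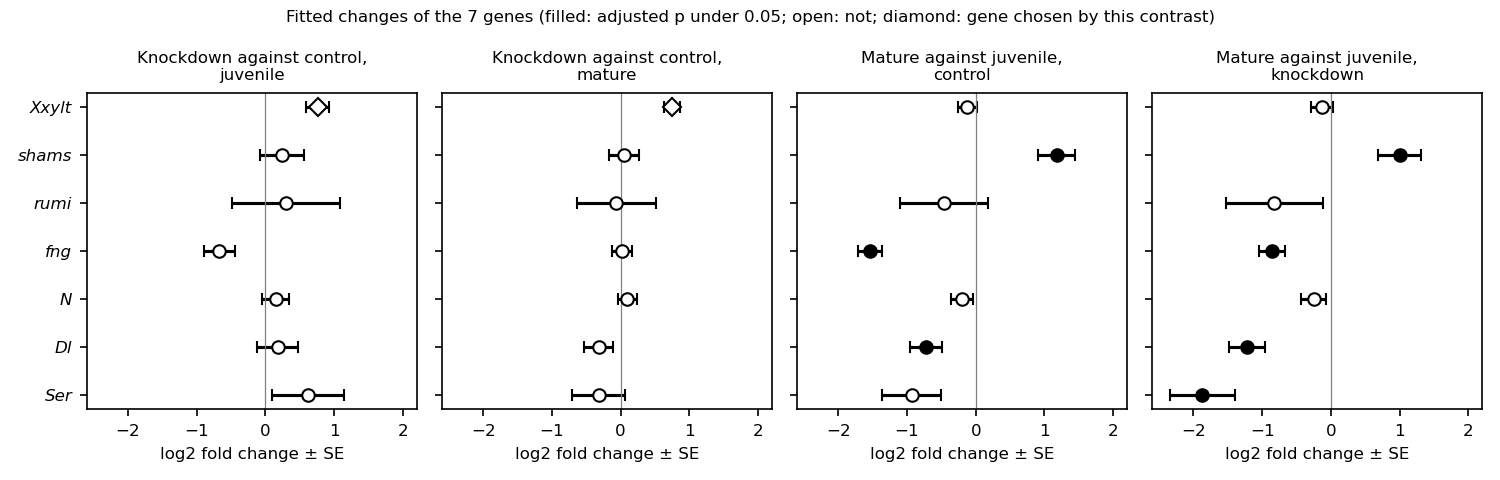
Fitted log2 fold change with its SE for each of the 7 genes in 4 comparisons, filled where the edgeR adjusted p was under 0.05 and shown as a diamond where the contrast chose the gene. The 6 genes beside Xxylt are open in both knockdown panels, while shams (1.18 and 1.00) and fng (-1.54 and -0.86) are filled in both age panels.

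Counted over the set, none of the 6 genes beside Xxylt was called in the knockdown at either age or for the difference between the ages. In all genes kept, 0.0583% were called in the mature knockdown (0.0417% lower), 5.33% in the juvenile knockdown (3.79% lower) and 1.55% for the difference (1.28% with the mature effect higher). At an unadjusted p under 0.05 edgeR had 693, 2613 and 1955 of all genes, and DESeq2 called none of the 6 either. The adjusted p of fng in juvenile flies, 0.0827, was the lowest of the 6 in the mature and juvenile comparisons.

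With age, 3 of the 7 genes were called in controls, shams higher and fng and Dl lower, where 22% of all genes were called, 12.2% higher and 9.87% lower. In knockdown flies 4 of 7 were called, shams higher and fng, Dl and Ser lower, where 34.2% of all genes were called, 17.8% higher and 16.4% lower. The age groups did not overlap for these genes, nor for rumi in knockdown flies, nor for 26.6% of all genes in controls and 51.3% in knockdown flies (24.5% higher and 26.9% lower). The median log2 change of the 7 was -0.46 in controls and -0.82 in knockdown flies, against -0.06 and -0.07 over all genes kept. Both medians are the value of rumi, which was not called and had no settled direction in controls. Its 2 SE intervals ran from -1.74 to 0.81 in controls and from -2.25 to 0.60 in knockdown flies. The comparisons share the mature and juvenile libraries with the knockdown comparisons above. The age groups were counted against gene lists that differ by 1 entry, the UNC84 tag, which only the mature files list, so age and the way the files were made cannot be told apart.

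Summed marker levels of some other cell types differed between the ages, and single markers within a list often went both ways. The summed level of the 10 glial markers was 1508 to 1586 CPM in juvenile controls, 1204 to 1411 in juvenile knockdown flies, 769 to 1169 in mature controls and 749 to 1065 in mature knockdown flies. Of the 8 that passed the filter, 1 was called higher and 2 lower with age in controls (median log2 change -0.11), where 22% of all genes were called. In knockdown flies 3 were called higher and 2 lower, with a median of 0.38, where 34.2% of all genes were called. The summed level of the 7 fat body markers was 185 to 236 CPM in juvenile controls and 2015 to 2769 in mature controls, nearly all of it from apolpp (144 and 2303 CPM on average). The list itself was mixed, with 2 called higher and 1 lower in controls (median log2 change -0.13) and 2 higher and 4 lower in knockdown flies (median -1.63). The summed level of the 9 photoreceptor markers was 3523 to 4219 CPM in juvenile and 4272 to 9893 in mature controls. Of the 9, 2 were called higher and 1 lower in controls, and 6 higher and none lower in knockdown flies. Of 6 muscle markers 1 was called lower in each genotype. Of 5 hemocyte markers 2 were called lower in controls and 1 in knockdown flies, and none of either list was called higher. In the mature groups replicate 1, the lowest in glial and in muscle markers, was also the lowest in fng, N and Dl and the highest in Xxylt. It was the highest of its group in summed hemocyte markers too (572 CPM in controls and 588 in knockdown flies). The part of these cell types in the age changes of fng, Dl, Ser and shams was not tested.

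**Figure D3:**
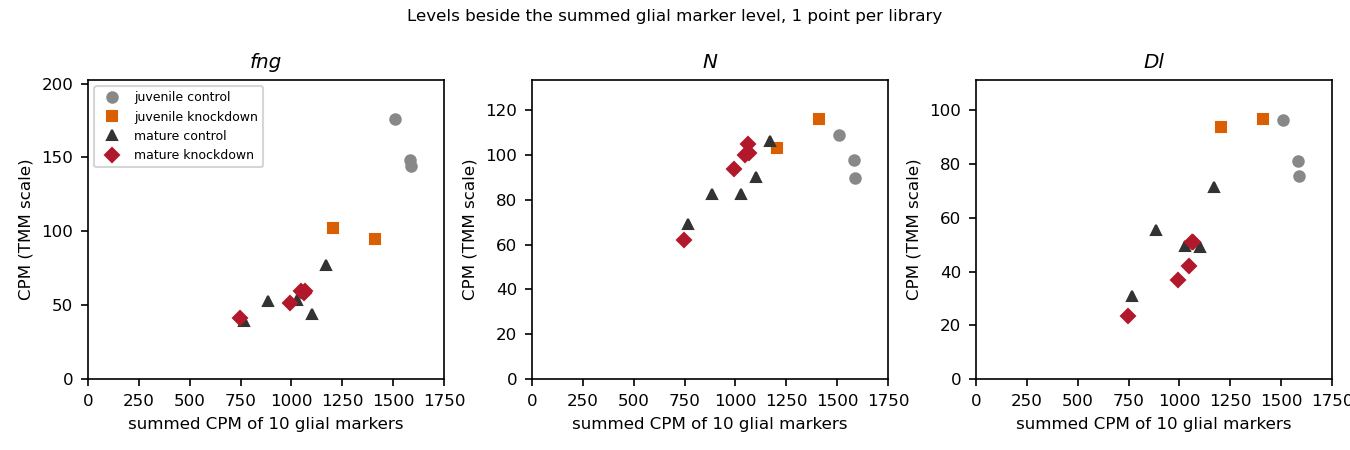
CPM of fng, N and Dl against the summed CPM of 10 glial marker genes, with 1 point per library and a symbol per group. Juvenile libraries lie at 1204 to 1586 CPM of glial markers and mature ones at 749 to 1169. Within the mature groups the libraries at 769 and 749 are lowest in N (69.1 and 62.1 CPM). Both were also lowest in summed muscle markers, which are not plotted.

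Levels were compared between genes per kilobase of exon. Whether reads in introns were counted is not given in the sources used here. Xxylt has no annotated intron, while fng spans 23622 bases with 1959 of exon, so the order of genes may depend on the length used. In mature controls Xxylt was at 30.5 CPM per kb, the highest of the set, above the level of 85.2% of 11779 genes. Below it came fng at 27.3, Dl at 9.72, N at 8.49, shams at 3.64, rumi at 1.06 and Ser at 0.971 CPM per kb. The neighbours Xxylt and fng differed by less than the SD of fng (7.35 CPM per kb) and about as much as that of Xxylt (3.14). Dl and N differed by less than either SD (2.76 and 1.34), as did rumi and Ser (0.297 and 0.432). In juvenile controls fng led with 79.5 CPM per kb, followed by Xxylt at 33.1, Dl at 16.0 and N at 9.75. In the knockdown libraries Xxylt led at both ages, with 56.0 CPM per kb in juvenile flies, where fng was at 50.1, and 51.4 in mature flies, where fng was at 27.7. The transferases that act before it in the chain, rumi and shams, stood at 1.06 and 3.64 CPM per kb in mature controls.

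The enzymes that supply UDP-xylose were part of a further list of 11 genes for Notch glycosylation and sugar supply, of which 10 were matched and 9 passed the filter. frc was listed at 0 in every library, and all of its exon bases are shared with other genes. In the mature knockdown none of the 9 was called (0.0583% of all genes), and in the juvenile knockdown 1 was, Uxs, which was lower (5.33% of all genes called). With age in controls UGP was called higher and Uxs lower (22% of all genes called), and in knockdown flies UGP alone was called, higher (34.2%). The median log2 change of the list was -0.05 and -0.19 in the mature and juvenile knockdown, and 0.11 and -0.01 with age in controls and knockdown flies.

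Uxs makes UDP-xylose, the donor for Shams and Xxylt. It was 20.6, 17.3 and 16.3 CPM in juvenile controls and 7.68 and 9.69 in juvenile knockdown flies. It was 10.5, 11.5, 11.1, 14.1 and 11.1 CPM in mature controls and 12.5, 10.4, 12.8, 11.9 and 13.3 in mature knockdown flies. The juvenile groups did not overlap, as for 15.2% of all genes with the knockdown lower, and the mature groups did.

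Uxs fell by 1.06 on the log2 scale in the juvenile knockdown (SE 0.20), or 2.08-fold (edgeR adjusted p = 0.00725). In the mature knockdown its change was 0.06 (SE 0.14, edgeR adjusted p = 1), and the difference between the ages, 1.12 (SE 0.24), was called (edgeR adjusted p = 0.0266). The juvenile call was lost without juvenile knockdown replicate 1 (-0.92, adjusted p = 0.0614) and in the juvenile libraries fitted alone (adjusted p = 0.0967). It was also lost with limma-voom, both with sample quality weights (adjusted p = 0.15) and with 1 weight per age (0.238). With 1 weight per age no gene at all was called in the juvenile knockdown. The difference was not called without juvenile knockdown replicate 1 (0.99, adjusted p = 0.0996). Nor was it without mature control replicate 3 (0.0506) or 5 (0.0553) or mature knockdown replicate 5 (0.0597). It was also not called with limma-voom (0.157 with sample quality weights, 0.251 with 1 weight per age), upper-quartile scaling (0.0569) or the replicate block (0.0765). In the juvenile knockdown the summed Kenyon cell marker level was 12361 to 12832 CPM against 13647 to 20043 in controls. Of its 13 markers 3 were called lower, where 3.79% of all genes were. The summed levels of the other marker lists did not overlap between the juvenile groups either, and 30% of all single genes did not. Knockdown libraries were lower in photoreceptor (2202 to 2701 against 3523 to 4219 CPM), glial (1204 to 1411 against 1508 to 1586) and hemocyte markers (318 to 383 against 466 to 586). They were higher in muscle (6563 to 8298 against 3937 to 6085) and fat body markers (269 to 307 against 185 to 236). Few single markers were called, where 5.33% of all genes were. Called lower were 1 of 9 photoreceptor and 1 of 8 glial markers, and called higher 1 of 7 fat body and 1 of 5 hemocyte markers. The hemocyte call went against the summed level of its list, and none of the 6 muscle markers was called. The part of these cell types in the change of Uxs and in the value of fng was not tested. In controls Uxs fell with age by 0.63 (SE 0.16, edgeR adjusted p = 0.00707; two-sided exact permutation p = 0.0179, the smallest this design gives). In knockdown flies its change with age was 0.49 (SE 0.19) and not called (edgeR adjusted p = 0.051).

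UGP makes UDP-glucose, from which both the glucose of Rumi and, further on, the xylose derive. It was 20.8, 14.5 and 26.6 CPM in juvenile controls and 36.3 and 30.1 in juvenile knockdown flies. It was 48.7, 68.4, 56.5, 74.5 and 63.2 CPM in mature controls and 33.1, 103, 56.4, 74.8 and 71.2 in mature knockdown flies. The control groups did not overlap between ages, as for 15.6% of all genes with the mature flies higher.

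UGP rose with age by a log2 change of 1.59 in controls (SE 0.29), or 3.01-fold (edgeR adjusted p = 0.00105; two-sided exact permutation p = 0.0179, the smallest this design gives). In knockdown flies it rose by 1.03 (SE 0.33, edgeR adjusted p = 0.0254). That call was lost without juvenile knockdown replicate 1 (1.24, adjusted p = 0.0707) or 2 (0.90, adjusted p = 0.157). It was also lost in the knockdown libraries fitted alone (1.00, adjusted p = 0.0546) and with limma-voom with 1 weight per age (0.95, adjusted p = 0.156). The knockdown changed UGP by 0.12 (SE 0.24) in mature and 0.69 (SE 0.34) in juvenile flies, neither of them called (edgeR adjusted p = 1 and 0.252). sgl, the enzyme between UGP and Uxs, was not called in any comparison, with log2 changes from -0.15 to 0.11.

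**Figure D4:**
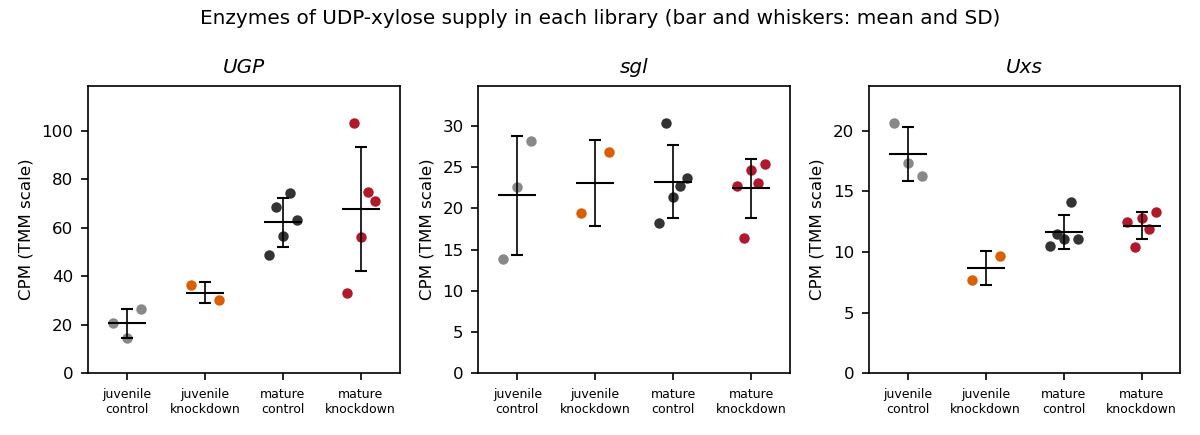
CPM on the TMM scale of UGP, sgl and Uxs in each library (points) with the mean and SD of each group. UGP is higher in mature controls (48.7 to 74.5 CPM) than in juvenile controls (14.5 to 26.6), and Uxs is lowest in the juvenile knockdown libraries (7.68 and 9.69).

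The genes that cleave Notch, 8 listed with 7 matched and all 7 kept, showed no call in the knockdown at either age. With age in controls 3 of the 7 were called, all lower, where 22% of all genes were called and 9.87% were lower. nct, a subunit of the gamma-secretase that frees the intracellular part of Notch, fell by 0.75 on the log2 scale (SE 0.12, edgeR adjusted p = 2.38e-04). Fur1 and Fur2, furins, a class of protease that cuts Notch in the secretory pathway in mammals, fell by 0.55 (SE 0.12, adjusted p = 0.00334) and 0.37 (SE 0.11, adjusted p = 0.0212). The call of Fur1 was lost with limma-voom with 1 weight per age (adjusted p = 0.0623). The call of Fur2 was lost without juvenile control replicate 1 (-0.26, adjusted p = 0.0987), juvenile knockdown replicate 1 (0.0579) or mature control replicate 3 (0.0792), and with limma-voom (0.132). In knockdown flies nct fell by 0.89 (adjusted p = 1.15e-04) and Fur1 by 0.69 (adjusted p = 0.00103). The median of the list was -0.37 in controls and -0.22 in knockdown flies.

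Of 9 genes for the trafficking of ligands and receptor, 8 passed the filter, since spdo was listed at 0 in every library. In controls 3 of the 8 were called with age, all lower, where 9.87% of all genes were called lower. In knockdown flies 3 of the 8 were called, again all lower, where 16.4% of all genes were. In controls numb, an endocytic adaptor that restrains Notch, fell by 0.76 (SE 0.11, edgeR adjusted p = 1.17e-04). Nedd4, a ubiquitin ligase that acts on Notch, fell by 0.32 (SE 0.10, adjusted p = 0.0344), and neur, a ubiquitin ligase that lets Delta signal, by 0.42 (SE 0.14, adjusted p = 0.0351). The calls of the last pair depended on single libraries. Leaving out a single library gave Nedd4 values up to -0.26 and adjusted p of 0.0535 to 0.13 without juvenile knockdown replicate 1, juvenile control replicate 2 or 3, or mature control replicate 1, 3 or 5. For neur the adjusted p was 0.0505 to 0.13 without juvenile knockdown replicate 1, any juvenile control replicate, or mature control replicate 1, 2, 3 or 4. With limma-voom the adjusted p was 0.11 for Nedd4 and 0.158 for neur.

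In knockdown flies lqf, an epsin that acts in Delta endocytosis, fell with age by 0.66 (SE 0.12, edgeR adjusted p = 6.88e-04), Nedd4 by 0.60 (SE 0.12, adjusted p = 9.86e-04) and numb by 0.60 (SE 0.13, adjusted p = 0.00159). Without juvenile knockdown replicate 1 the adjusted p was 0.061 for Nedd4 and 0.0756 for numb, with a log2 change of -0.47 for each. lqf was also the 1 gene of the list called in the juvenile knockdown, higher by 0.52 (SE 0.14, adjusted p = 0.035). Leaving out some single libraries took that adjusted p to between 0.0501 and 0.222. Those libraries were juvenile knockdown replicate 1 or 2, juvenile control replicate 2 or 3, mature control replicate 3 and mature knockdown replicate 4 or 5. For lqf there, limma-voom gave 0.252 with a weight per sample and 0.399 with 1 weight per age. The median of the list with age was -0.29 in controls and -0.10 in knockdown flies.

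Among the 5 nuclear effectors, mam, which encodes the coactivator Mastermind, fell with age by 0.49 in controls (SE 0.11, edgeR adjusted p = 0.00259) and by 0.55 in knockdown flies (SE 0.12, adjusted p = 0.00191). Without juvenile knockdown replicate 1 the value in knockdown flies was -0.37 (adjusted p = 0.141). Su(H), the DNA-binding partner of Notch, rose in knockdown flies by 0.83 (SE 0.19, adjusted p = 0.00291), from 8.76 and 8.79 CPM to between 14.8 and 16.8. In controls its change was 0.39 (SE 0.16, adjusted p = 0.0876). No gene of the list was called in the knockdown, and the median with age was 0.17 in controls and 0.23 in knockdown flies.

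**Figure D5:**
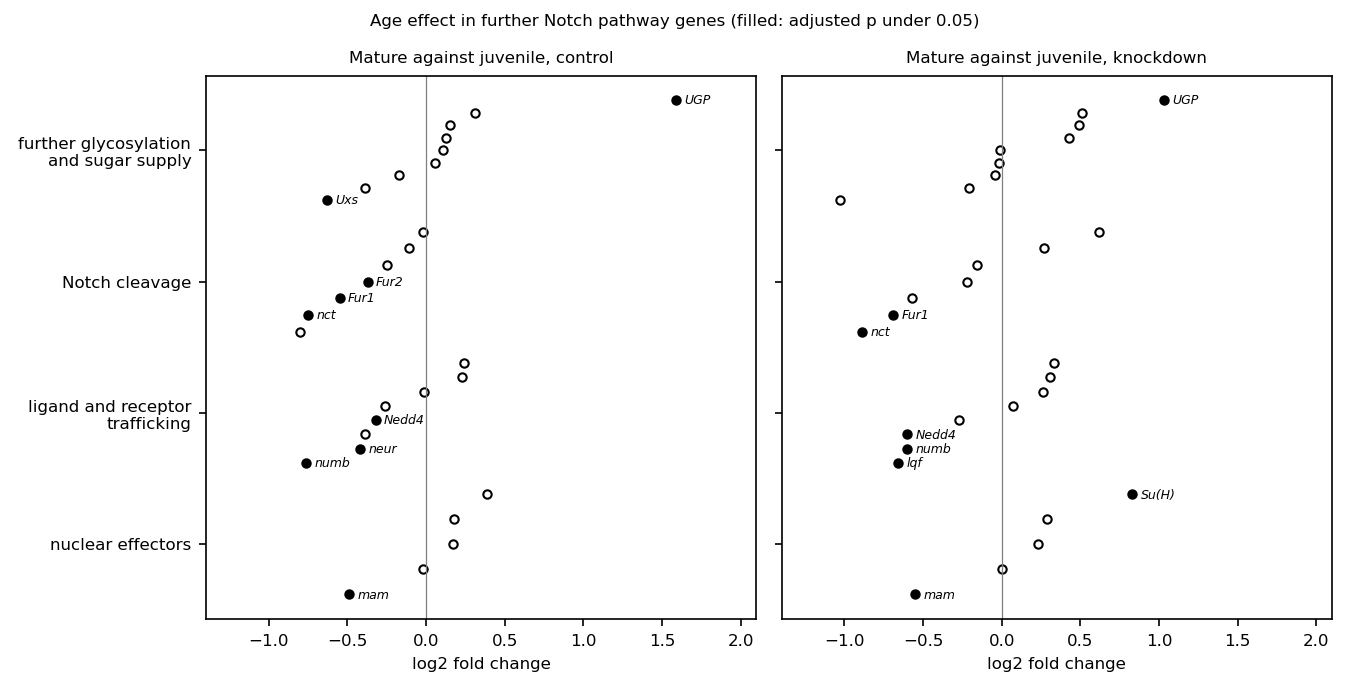
Log2 change with age of each gene that passed the filter in 4 further Notch pathway lists, in control and in knockdown flies, filled and named where the edgeR adjusted p was under 0.05. UGP is the gene farthest to the right in both panels (1.59 and 1.03), and the called genes of Notch cleavage and of trafficking lie to the left.

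Notch target genes were low. All 13 were under 5 CPM in every library, and 11 passed the filter. None was called in the knockdown at either age, and 1 of 11 was called with age in controls, where 22% of all genes were. It was E(spl)m8-HLH, a repressor of the E(spl) complex. This gene passed the filter only through the juvenile controls, the group where it was high, so its call supports nothing by itself. It was 0.441, 0 and 1.77 CPM in juvenile controls and 0 to 0.0561 in mature controls (edgeR adjusted p = 0.0423). The zero in the second juvenile control lies under a limit of 0.0683 CPM, which is 3 counts there and covers counting error only. The call was lost without mature control replicate 1, 3, 4 or 5 or mature knockdown replicate 2, 4 or 5, with adjusted p from 0.0506 to 0.0932, and with DESeq2 (adjusted p = 0.131). The summed level of the 13 targets was 21.3 CPM in juvenile control replicate 1, 5.75 and 11.6 in the other two juvenile controls, and 2.57 to 8.11 in the mature libraries. The part of that library in the level of the list was not tested further.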

How the data were processed

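The authors deposited whole-number read counts per gene for 15 libraries of mushroom body nuclei, and the values carry no normalization. Per the submitters' processing notes, STAR 2.5.3a aligned the reads to BDGP6 and HTSeq 0.7.1 counted them. The strand setting is not given in the sources used here. Reads that HTSeq placed outside genes (1.12% to 2.84%) or called ambiguous (7.08% to 7.75%) were left out, as was the UNC84 entry of the 10 mature files. Names, exon lengths and positions came from annotation release 115 on BDGP6.54, which gave symbols to 17253 of 17559 IDs. Dl was matched through its listed name Delta.

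The analysis used edgeR 4.0.16 in R 4.3.3. The filter was filterByExpr (minimum count 10, minimum total 15), the scaling TMM, and the model had 1 mean per group across the 15 libraries, with robust quasi-likelihood dispersions. The quasi-likelihood F-test was run for 5 comparisons with Benjamini-Hochberg adjustment over all 11997 genes kept, and an adjusted p under 0.05 was the threshold for a call. SE is the log2 change divided by the square root of F. Adjusted p-values come from it where no other tool is given. Single genes were also compared by two-sided exact permutation of libraries on log2 CPM, with raw p. The test was checked on simulated data. No 2 libraries of a group were duplicates (lowest chi-square per degree of freedom 14.8).

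The genes and lists were chosen with earlier results of these data known. All 7 genes were named throughout. From each further list up to 3 called genes per comparison were named by smallest p, for Xxylt and N the 5 most correlated genes with a proper symbol, Bap60 always, and the genes next to Xxylt. Alternatives were DESeq2 1.42.0, limma-voom 3.58.1 with a quality weight per sample, scaling by RLE or the upper quartile, a fit with no filter or a stricter one (mean count 10 and 1 CPM in 5 libraries), a fit to only the groups compared, a block for the replicate number, and leaving out each library. Voom with 1 weight per age was added after the data had been seen. Intervals of 2 SE come from the fit and carry the spread between libraries, while limits for counts of 0 cover counting error only.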

Additional observations from a re-analysis of the deposited data

Results flagged for a closer look

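In the mature knockdown group N was 62.1 CPM in replicate 1 and 93.5 to 105 CPM in the other 4 libraries, a gap large against the range of the group. The same library had the lowest summed glial (749 CPM) and muscle (2018 CPM) marker levels of its group.

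Uxs was 14.1 CPM in mature control replicate 4 and 10.5 to 11.5 CPM in the other 4 mature controls. Its knockdown effect differed between the ages by 1.12 on the log2 scale (SE 0.24, edgeR adjusted p = 0.0266), with the juvenile effect at -1.06 and the mature effect at 0.06. Every juvenile knockdown library lay below every juvenile control, as for 15.2% of all genes, and the mature groups overlapped. The call of the difference was lost in several of the alternative fits given above.

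E(spl)m8-HLH was 0.0561 CPM in mature control replicate 2 and 0.0435 CPM in mature knockdown replicate 4, and had no reads in the other libraries of these groups, so both values stand apart at the level of single reads.

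The check for a library standing apart was made in 40 groups of values and marked 4 of them. Chance marks about 1 in 20.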

How the results depend on the processing

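The number of genes called among the 6 beside Xxylt stayed at 0 in the mature knockdown and for the difference between ages under every alternative run. In the juvenile knockdown it was 0, but 1 (fng) in the juvenile groups fitted alone, and 0 to 1 when single libraries were left out. With age 3 of 7 genes were called in controls (2 to 4 when single libraries were left out, 2 with either limma-voom fit) and 4 of 7 in knockdown flies (3 to 4). Values that changed sign were all of genes not called in that comparison, and the cause was not tested. With limma-voom and sample quality weights they were shams in the mature knockdown (-0.04), N for the difference between ages (0.01) and rumi with age in controls (1.18). Voom with 1 weight per age gave the last as 0.58.

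Leaving out single libraries, the log2 change in the mature knockdown ran from -0.03 to 0.14 for shams, -0.17 to 0.08 for rumi and -0.07 to 0.18 for fng. In the juvenile knockdown it ran from -0.34 to 0.64 for shams and -0.24 to 1.87 for rumi. For the difference between ages it ran from -0.59 to 0.39 for shams, -1.94 to 0.19 for rumi and -0.18 to 0.06 for N, and with age in controls from -1.0 to 1.08 for rumi. Xxylt ran from 0.66 to 0.80 in the mature and from 0.65 to 0.83 in the juvenile knockdown.

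The labels do not say whether replicate numbers pair the samples, and the main fit did not use them. Same-numbered mature libraries correlated at 0 to 0.28 in their deviations from group means, highest for replicate 1 (3 of 5 best with their own number). Juvenile ones correlated at -0.03 to 0.01. A batch shared by same-numbered libraries was not tested. With the replicate block, rumi with age in controls became 0.13, and 3 of 7 genes were called with age in knockdown flies, since shams was not (adjusted p = 0.0629). UGP there (0.122), lqf in the juvenile knockdown (0.0578), the difference for Uxs (0.0765) and E(spl)m8-HLH with age in controls (0.278) were not called either.

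Counts over all genes moved more. The mature knockdown called 7 genes by edgeR, 47 by DESeq2, 98 by limma-voom with quality weights, 28 with 1 weight per age, 13 in the compared groups alone and 2 with the block. The juvenile knockdown called 640, and 1216, 11, 0, 387 and 354. The difference between ages called 186, and 550, 6, 0 and 84 (not run in the compared groups alone), and 102 with upper-quartile scaling. Age in controls called 2644, and 3154, 1702, 1334, 2283 and 2332. Scaling by RLE took the median log2 change of all genes with age from -0.07 to -0.18 in knockdown flies and from -0.06 to -0.12 in controls. Low counts limit rumi and the Notch target genes.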
